A study of Mus musculus with 14 samples.

Results

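The genes described here write, read or erase DNA methylation. They are *Dnmt3a*, *Dnmt3b* and *Dnmt3l*, which place DNA methylation anew, *Dnmt1* and *Uhrf1*, which copy it at replication, *Tet1*, *Tet2*, *Tet3* and *Tdg*, which oxidise and excise it, and *Zfp57*, which reads it at imprinted loci. They were taken by name, as a list of genes of 1 function drawn up with earlier results of these data known, and all 10 were found among the 23298 genes of the deposited expression table. All 10 had a value of 10 or more in every one of the 14 lines, as did 13650 of all the genes. The samples were mouse embryonic stem (ES) cell lines from reciprocal crosses of the inbred strains C57BL/6J and CAST/EiJ. In the BC cross the mother was C57BL/6J and the father CAST/EiJ, and in the CB cross the strains were exchanged. The BC cross gave 3 XX, 3 XY and 2 XO lines and the CB cross gave 3 XX and 3 XY lines. All lines were hybrids kept undifferentiated in serum with leukemia inhibitory factor (LIF), on a feeder layer of inactivated embryonic fibroblasts, and 2 feeder-depletion steps preceded the RNA isolation. Each line came from a single blastocyst, so that a line stands for 1 embryo and for what its culture selected, and the XO lines arose spontaneously during derivation. No treatment, transgene or deletion separated the groups.

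Methylation of cytosine in CpG pairs is set by the de novo methyltransferases Dnmt3a and Dnmt3b, with Dnmt3l as a catalytically inactive cofactor that is abundant in early embryonic and germ cells. Uhrf1 binds hemimethylated DNA behind the replication fork and recruits Dnmt1, which restores the mark on the new strand, while the Tet dioxygenases oxidise 5-methylcytosine and the glycosylase Tdg removes its further oxidised forms. ES cells with a pair of active X chromosomes are known for a genome with less methylation than that of XY cells. DNA methylation itself was not measured in these samples, and all values below are RNA.

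The libraries were stranded, ribosome-depleted total RNA, and each value is a read signal per gene that the authors had scaled to a near-common total per line. The low values step by what 1 read was worth, which gave 11904420 to 69646327 reads per line, fewest in CB XY 2. Reads of the 10 ES cell markers were high in every line, and none of those markers was listed at 0. The 27 fibroblast markers summed to between 117464 and 243928 in the 3 BC XX lines and to between 12295 and 46764 in the other 11 lines, so that RNA of these markers was highest in 1 group. The 4 Y-linked genes summed to between 2107 and 4640 in BC XY 1, 2 and 3 and CB XY 1, but to 54.0 in CB XY 2 and 226 in CB XY 3, which is no higher than in the CB XX lines, at 82.4 to 331. They summed to 533, 811 and 1659 in BC XX 1, 2 and 3, the lines high in fibroblast markers, and to 157 and 175 in the BC XO lines. CB XY 2 and CB XY 3 are called here the libraries labelled CB XY 2 and 3, and the calls that use them are also given without them. Lines were prepared for sequencing in batches, and the batch of each line was not given, so batch and group cannot be told apart.

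Among the 10 genes, *Dnmt3b* and *Dnmt3a* fell in XX lines relative to XY lines and no other gene passed the threshold in either direction. The comparison asked which genes differ between ES cell lines labelled XX and lines labelled XY, over 6 lines of each. The 6 XY lines include the libraries labelled CB XY 2 and 3, without which neither *Dnmt3b* nor *Dnmt3a* was called. *Dnmt3b* was 2.55-fold lower in XX lines (log2 fold change -1.35 ± 0.29, SE, limma adjusted p = 0.0171, Benjamini-Hochberg for the 15311 genes tested). *Dnmt3a* was 1.54-fold lower, with a log2 fold change of -0.62 ± 0.16 (SE) and an adjusted p of 0.0442 by the same limma test. A count of 2 of 10 stands against 797 of 15311 genes called in either direction, which is 5.21%, and against 1.99% called lower. The median log2 fold change of the 10 genes was -0.32, and that of all genes tested was -0.03. Log2 fold changes here and below are of the value plus 5, and a gene is called where the adjusted p is under 0.05. Fewer cells of a type and less RNA per cell cannot be told apart in such bulk samples.

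**Figure D1:**
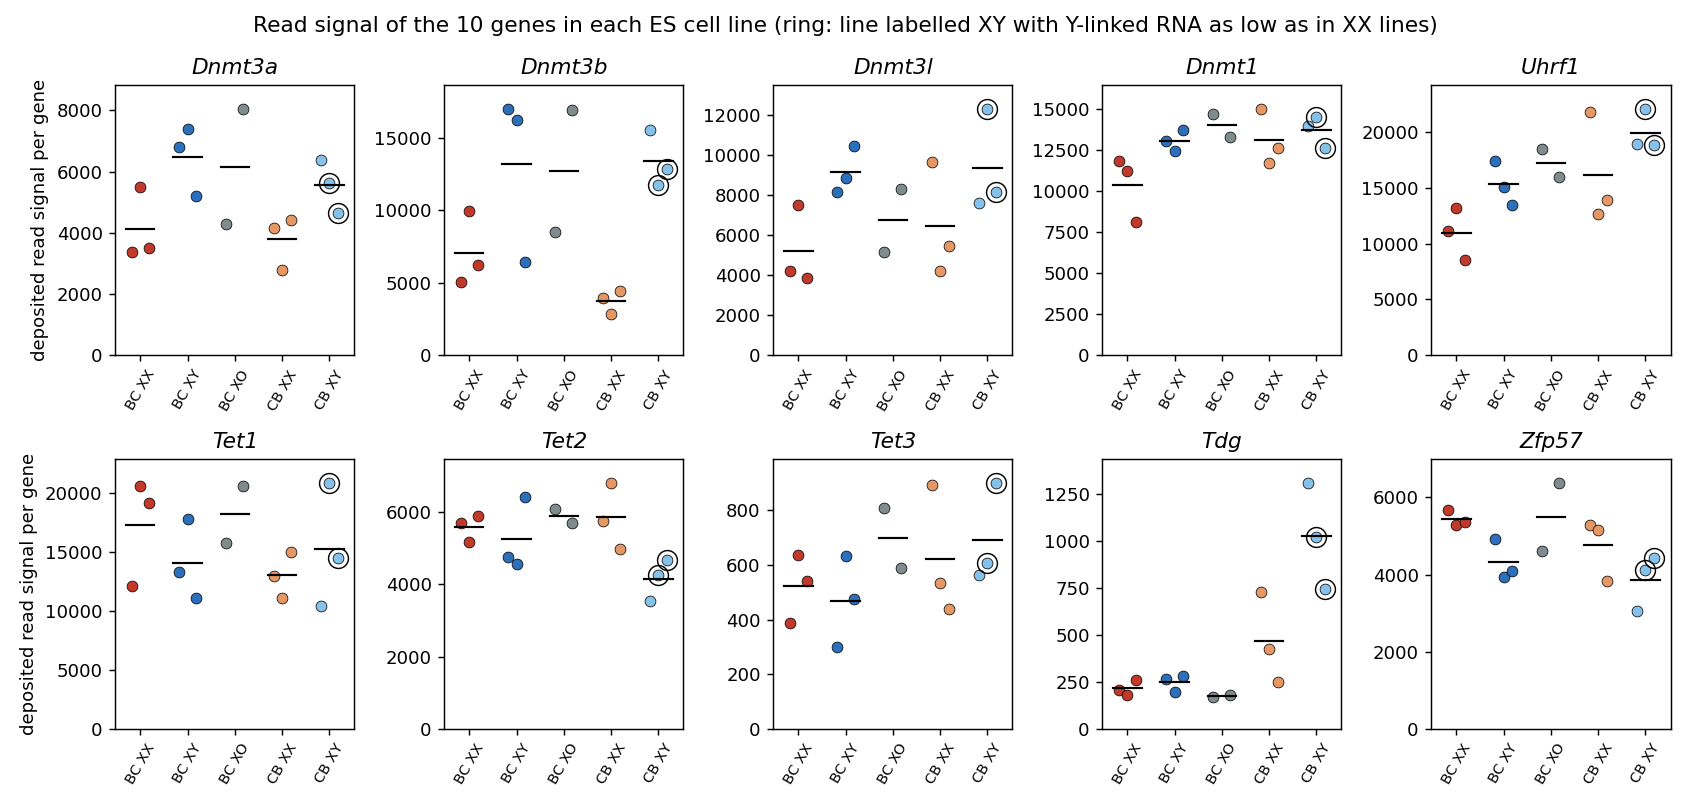
Each panel plots the deposited read signal of 1 gene on a linear axis from 0, with a point per ES cell line, a bar for the mean of the 2 or 3 lines of a group, and a ring around the libraries labelled CB XY 2 and 3. The CB XX lines lie between 2815 and 4403 for *Dnmt3b*, below every other line, while *Tdg* is at most 283 in BC lines.

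The de novo methyltransferase *Dnmt3b* (chromosome 2, 153475186 to 153513466 on the plus strand of mm9) had the widest difference between complements. The 3 BC XX lines had values of 5027, 9968 and 6195, and the 3 BC XY lines had 16937, 16179 and 6451. The 3 CB XX lines had 3923, 2815 and 4403, whereas the CB XY lines had 15534, 11760 and 12820. All 3 CB XX lines were thus below all other lines, and in the BC cross the ranges overlapped because BC XY 3 lay below BC XX 2. Of the 6 XY lines, 5 exceeded every XX line. Within the CB cross *Dnmt3b* fell 3.63-fold in XX lines (log2 fold change -1.86 ± 0.36, SE, 95% interval -2.63 to -1.09, limma adjusted p = 0.0138). Within the BC cross the log2 fold change was -0.84 ± 0.36 (SE), with an interval of -1.61 to -0.07 and a limma adjusted p of 0.180. It turned on single lines, the limma adjusted p being 0.0429 without BC XY 3 (log2 fold change -1.29), 0.379 without BC XY 1 (-0.59) and 0.450 without BC XY 2 (-0.63). The difference between the 2 crosses, tested as an interaction of complement and cross, was 1.03 on the log2 scale (95% interval -0.06 to 2.11, limma adjusted p = 0.585).

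*Dnmt3a* (chromosome 12, 3806007 to 3914443 on the plus strand) encodes the other de novo enzyme. Its values were 3385, 5498 and 3489 in BC XX lines, 6793, 7404 and 5201 in BC XY lines, 4160, 2768 and 4431 in CB XX lines and 6370, 5642 and 4637 in CB XY lines. In the CB cross every XY line was above every XX line, and over both crosses 5 of 6 XX lines were below all XY lines, BC XX 2 being the exception. Within a cross neither difference passed the threshold, the log2 fold change being -0.67 ± 0.26 (SE, limma adjusted p = 0.145) in BC lines and -0.57 ± 0.26 (SE, limma adjusted p = 0.261) in CB lines. The call over both crosses was close to the threshold. Leaving out any one of BC XX 1, BC XX 3, BC XY 1, BC XY 2, CB XX 2, CB XX 3, CB XY 1 or CB XY 2 raised its adjusted p to between 0.0566 and 0.102, with a log2 fold change of -0.52 to -0.66.

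The cofactor *Dnmt3l* (chromosome 10, 77504692 to 77526367 on the plus strand) had values of 4204, 7491 and 3861 in BC XX lines and 8136, 8828 and 10434 in BC XY lines. The CB XX lines had 9663, 4222 and 5436 and the CB XY lines 7596, 12268 and 8168. No BC XX line reached a BC XY line, but CB XX 1 lay within the CB XY range. The log2 fold change over both crosses was -0.73 ± 0.22 (SE, 95% interval -1.20 to -0.27), which missed the threshold with a limma adjusted p of 0.0655. With 1 line left out the limma adjusted p ran from 0.0109 without CB XX 1 (log2 fold change -0.90) to 0.143 without BC XX 1 (-0.66). It was 0.0421 with cross as a covariate and 0.571 with the fibroblast marker level as a covariate, where the log2 fold change was -0.34.

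The promoters of these 3 genes are shown because they are the de novo methylation genes, of which *Dnmt3b* and *Dnmt3a* passed the test. Each line below holds the 250 bases before an annotated start, read 5′ to 3′ on the plus strand of GRCm38.p6 from RefSeq, with CpG pairs in capitals. The *Dnmt3b* stretch is chr2:153649199-153649448. For *Dnmt3a* the start inside the gene is shown, chr12:3891494-3891743, from which the shorter form known from ES cells is transcribed, and for *Dnmt3l* the most upstream of 3 starts, chr10:78042037-78042286.
Dnmt3b: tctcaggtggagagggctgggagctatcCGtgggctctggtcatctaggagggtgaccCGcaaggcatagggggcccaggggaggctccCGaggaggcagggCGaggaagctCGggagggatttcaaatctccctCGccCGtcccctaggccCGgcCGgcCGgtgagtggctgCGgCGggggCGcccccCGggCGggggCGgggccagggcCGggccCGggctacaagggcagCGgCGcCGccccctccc
Dnmt3a, internal start: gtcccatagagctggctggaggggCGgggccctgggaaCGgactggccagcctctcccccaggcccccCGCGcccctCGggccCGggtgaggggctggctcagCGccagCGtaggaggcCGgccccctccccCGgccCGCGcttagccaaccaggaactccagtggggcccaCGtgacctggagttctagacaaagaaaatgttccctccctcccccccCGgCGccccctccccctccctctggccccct
Dnmt3l, most upstream start: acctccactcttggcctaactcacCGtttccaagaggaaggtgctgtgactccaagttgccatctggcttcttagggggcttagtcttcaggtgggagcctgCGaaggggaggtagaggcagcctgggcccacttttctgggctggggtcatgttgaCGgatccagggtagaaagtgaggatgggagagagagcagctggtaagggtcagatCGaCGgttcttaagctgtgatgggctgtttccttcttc
The *Dnmt3b* stretch held 21 CpG pairs, a number that 16.3% of the 32851 promoter stretches of this length reached, and the *Dnmt3a* stretch held 15, a number that 27.3% reached. The *Dnmt3l* stretch held 5, where the median promoter held 6. The letters GGGCGG, searched on both strands, stood 3 times in the *Dnmt3b* stretch, once in that of *Dnmt3a* and not in that of *Dnmt3l*. Of all the stretches, 32.7% held them at least once. These counts depend on the start shown. The upstream starts of *Dnmt3a* held 38 and 40 CpG pairs, and the letters 5 and 4 times. The other starts of *Dnmt3l* held 4 and 3 CpG pairs, and the letters 2 and 0 times. All 10 genes had promoter entries, with 19 starts between them. Gene values sum over all starts, so the forms of *Dnmt3a* were not separated, and which start of *Dnmt3l* these lines use was not determined.

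The ratio of *Dnmt3b* to *Dnmt3a* within a line sets the de novo enzymes side by side. It was 0.943, 1.02 and 0.994 in CB XX lines and 2.44, 2.08 and 2.76 in CB XY lines. It was 1.48, 1.81 and 1.78 in BC XX lines and 2.49, 2.19 and 1.24 in BC XY lines, and 1.97 and 2.10 in BC XO lines. The 3 CB XX lines had the lowest ratios of all 14 lines and BC XY 3 the next lowest. These ratios were looked at after the values were seen and carry no test.

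**Figure D2:**
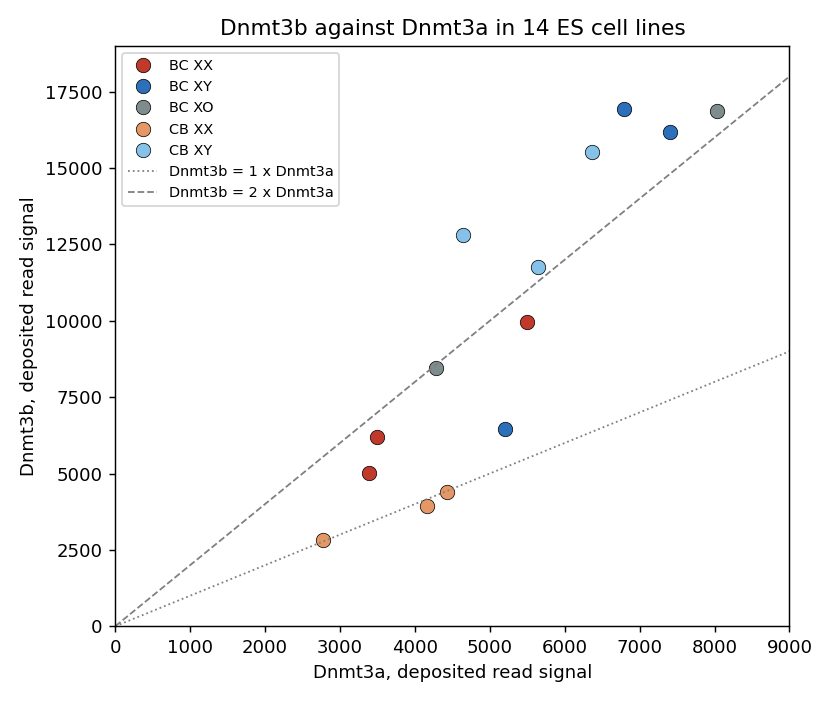
Each point is 1 of the 14 ES cell lines, with the deposited read signal of *Dnmt3a* on the x axis and that of *Dnmt3b* on the y axis, both linear from 0, coloured by group. The dotted and dashed lines mark ratios of 1 and 2, and the CB XX lines lie on the line of ratio 1, at 0.943 to 1.02, while the CB XY lines lie above the line of ratio 2.

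The values that move with these calls were as follows. Without the libraries labelled CB XY 2 and 3, the log2 fold change of *Dnmt3b* over both crosses was -1.37 and that of *Dnmt3a* was -0.73, with limma adjusted p of 0.0673 and 0.0687, so neither was called. *Dnmt3b* within the CB cross had a log2 fold change of -2.09 without them, and its adjusted p was 0.112, with CB XY 1 as the lone XY line, which the model assumes to vary like the other lines. It also lost its call there without CB XX 2 (log2 fold change -1.67, adjusted p = 0.0774) or without CB XY 1 (-1.75, adjusted p = 0.0668). With the mean log2 level of the fibroblast markers as a covariate, *Dnmt3b* over both crosses had a log2 fold change of -1.91 and an adjusted p of 0.00664, and *Dnmt3a* one of -0.64 and an adjusted p of 0.141. The same covariate took the BC log2 fold change of *Dnmt3l* from -0.87 to 0.16, and the markers separate BC XX from all other lines. In the CB cross the mean log2 level of these markers was 8.38 to 9.83 in XX lines and 8.02 to 9.53 in XY lines, and *Dnmt3b* with the covariate was at -1.96, with an adjusted p of 0.00887. In CB XX 2 the genes of chromosome 12, which holds *Dnmt3a*, had a median log2 deviation of -0.29 from their own medians over the 14 lines, and those of chromosome 10, which holds *Dnmt3l*, one of -0.24. Relative to the median of their chromosome in each line, *Dnmt3b* was at -1.33 and *Dnmt3a* at -0.58 over both crosses, with limma adjusted p of 0.0288 and 0.0478.

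The maintenance enzyme *Dnmt1* (chromosome 9, 20711650 to 20757317, minus strand) varied least of the 10 genes, by 1.85-fold between its lowest line, BC XX 3, and its highest, CB XX 1. It was at 8120 to 14987 in XX lines, with a median of 11766, and at 12473 to 14520 in XY lines, with a median of 13397. Its log2 fold change in XX lines was -0.21 ± 0.13 (SE, 95% interval -0.48 to 0.06, limma adjusted p = 0.337). In the BC cross every XX line, at 11841, 11235 and 8120, was below every XY line, at 13063, 12473 and 13731, with a log2 fold change of -0.35 ± 0.15 (SE) and a limma adjusted p of 0.185.

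Its recruiter *Uhrf1* (chromosome 17, 56442744 to 56462909, plus strand) was at 8502 to 21842 in XX lines, with a median of 12933, and at 13444 to 22033 in XY lines, with a median of 18141. XX lines had a log2 fold change of -0.42 ± 0.19 (SE, 95% interval -0.83 to -0.01, limma adjusted p = 0.203). CB XX 1, at 21842, was the one XX line above 13917. With 1 line left out the limma adjusted p ran from 0.0321 without CB XX 1 (log2 fold change -0.57) to 0.364 without CB XY 2 (-0.35), and it was 0.361 without BC XX 3 (-0.30). The BC XX lines, at 11117, 13211 and 8502, were all below the BC XY lines, at 17400, 15071 and 13444. Of its 50-base windows, the stated read length, 28.8% also occur without mismatch in an annotated pseudogene on the X chromosome, at 118447609 to 118450192 of mm9, so part of its reads cannot be placed with certainty. *Dnmt1* and *Uhrf1* deviated together over the 14 lines, with a Pearson correlation of 0.87 on the log2 scale, and these lines share their groups and differ in fibroblast marker RNA.

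With the fibroblast covariate the BC log2 fold change of *Dnmt1* was 0.11 and that of *Uhrf1* was 0.0018, where the values without it were -0.35 and -0.50. The fibroblast markers, 27 of 27 higher on average in BC XX than in BC XY lines, go the opposite way to both genes in that cross. Their median log2 fold change was 2.29, and that of all genes tested was -0.04. The level of these markers separates BC XX from all other lines. The covariate therefore cannot tell the part of the markers from that of the group where BC XX lines are compared with another group. The part of the markers in the result was not tested.

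The dioxygenase genes did not pass the threshold in any comparison. *Tet1* (chromosome 10, 62267318 to 62361866) was at 11115 to 20595 in XX lines and at 10417 to 20808 in XY lines, with medians of 13977 and 13847. Its log2 fold change of 0.06 ± 0.20 (SE) had a 95% interval of -0.36 to 0.48. *Tet3* (chromosome 6, 83312367 to 83391672), the form known from the oocyte and early zygote, was at 387 to 894 in XX lines and at 301 to 900 in XY lines. Its log2 fold change was -0.001 ± 0.25 (SE), with an interval of -0.54 to 0.53. Genes of chromosome 6, which holds *Tet3*, had a median log2 deviation of 0.29 in CB XX 1. It was 0.37 and 0.26 in the libraries labelled CB XY 2 and 3. *Tet3* itself was at 894, 609 and 900 in these lines, and 894 and 900 were the 2 highest values. In BC XO 1 it was at 807, where the chromosome 6 deviation was -0.076. A link was not tested.

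*Tet2* (chromosome 3, 133126643 to 133207354) had higher means in XX lines in each cross, without passing the threshold. Its values were 5774, 6806 and 4991 in CB XX lines and 3544, 4254 and 4676 in CB XY lines, which do not overlap. There the log2 fold change was 0.49 ± 0.16 (SE, 95% interval 0.14 to 0.84, limma adjusted p = 0.120). In the BC cross XX lines were at 5180 to 5908 and XY lines at 4560 to 6413, with BC XY 3 highest. The log2 fold change over both crosses was 0.30 ± 0.13 (SE, limma adjusted p = 0.193). BC XY 3, the XY line lowest in *Dnmt3b*, was the XY line highest in *Tet2*, and over the 14 lines the Pearson correlation of *Dnmt3b* and *Tet2* on the log2 scale was -0.66.

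*Tdg* (chromosome 10, 82092573 to 82113544, plus strand), the glycosylase gene, was the one gene of the 10 whose listed values passed the test between the crosses. Its values were 206, 178 and 260 in BC XX lines, 264, 198 and 283 in BC XY lines and 169 and 182 in BC XO lines. They were 725, 422 and 251 in CB XX lines and 1306, 1022 and 741 in CB XY lines. Every CB XY line was above every BC line, and CB XX 3 lay within the BC range. Between BC XY and CB XY lines *Tdg* was 3.99-fold lower in BC lines (log2 fold change -2.00 ± 0.33, SE, limma adjusted p = 0.0227), where 1 of 10 stands against 104 of 16261 genes called, or 0.64%. Leaving out any one of the 6 lines raised that adjusted p to between 0.0653 and 0.103, with a log2 fold change of -1.80 to -2.21, and without the libraries labelled CB XY 2 and 3 it was 0.178.

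The call was lost and the direction turned when the signal of a copy was added. The genome holds near-identical copies of the *Tdg* transcript on chromosomes 7, 10, 15 and 19 of mm9, the longest at 98.6% to 99.3% identity over 2805 to 3026 bases, and 78.1% of the 50-base windows of the transcript occur in one of them without mismatch. The following 50 coding bases, from 262 to 311 of the longest transcript, are shown as a stretch that a read could not place, since they stand unchanged in *Tdg* and in its 3 longest copies.
Tdg, coding bases: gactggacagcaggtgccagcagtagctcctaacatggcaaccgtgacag
Of the 1217 coding windows of this length, 48.9% are shared with all 3 longest copies. The copy on chromosome 10, listed as the pseudogene *Gm9855* (41772360 to 41775162, minus strand), had values of 2855 to 5975, above those of *Tdg* in all 14 lines. Of the sum of both, 2.75% to 6.45% was listed under *Tdg* in BC lines, 5.14% to 14.2% in CB XX lines and 16.6% to 25.2% in CB XY lines. No listed value was found for the longer copies, on chromosomes 15 and 7, so reads placed there are not in the sum. Any RNA of *Gm9855* itself would be in it. The sum itself was 5981, 5987 and 5320 in BC XY lines and 5180, 4998 and 4469 in CB XY lines, with every BC XY line above every CB XY line. The log2 fold change of the sum between them was 0.24, with a limma adjusted p of 0.469. Between XX and XY lines the log2 fold change was -0.71 ± 0.48 (SE, limma adjusted p = 0.392) for *Tdg* as listed and -0.33 for the sum (limma adjusted p = 0.149). Within the CB cross *Tdg* as listed was lower in every XX than in every XY line, with a log2 fold change of -1.22 ± 0.32 (SE) and a limma adjusted p of 0.0543.

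**Figure D3:**
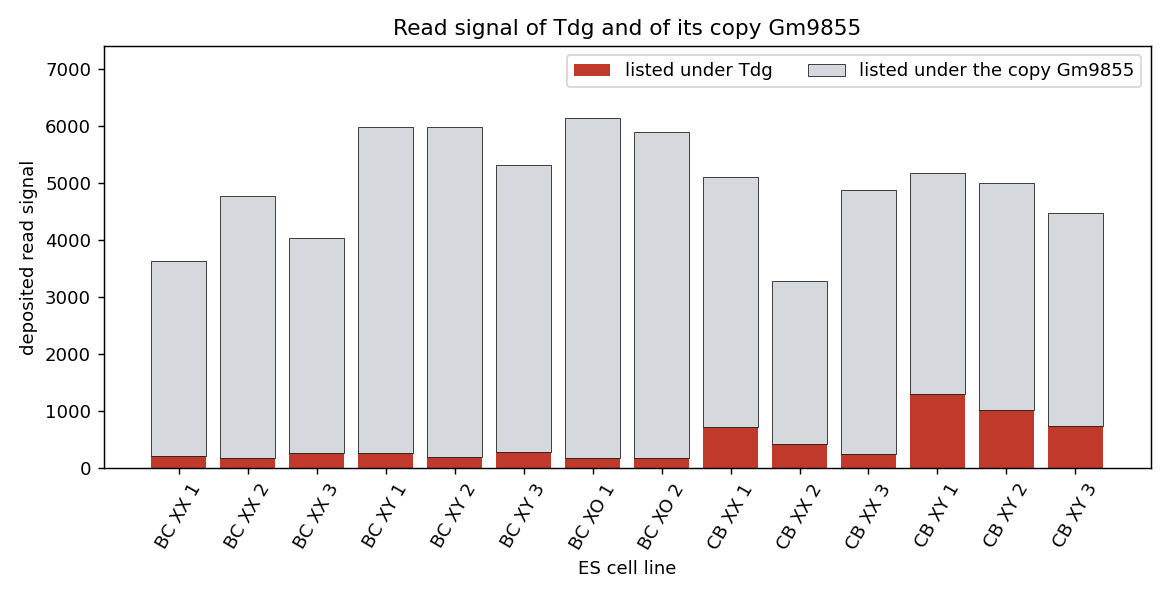
Each bar is 1 ES cell line, with the deposited read signal listed under *Tdg* in red and that listed under its copy *Gm9855* in grey stacked on it, on a linear axis from 0. The red share is 16.6% to 25.2% of the bar in CB XY lines and at most 6.45% in BC lines, while the whole bars are not higher in CB XY than in BC XY lines.

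*Zfp57* (chromosome 17, 37138108 to 37147580, plus strand) encodes the zinc finger protein that binds methylated imprinting control regions and keeps them methylated. Its values were 5667, 5280 and 5365 in BC XX lines, 4926, 3936 and 4101 in BC XY lines, 5293, 5159 and 3844 in CB XX lines and 3052, 4121 and 4441 in CB XY lines. Of the 6 XX lines, 5 stood above all XY lines, CB XX 3 being the exception. XX lines differed from XY lines by a log2 fold change of 0.32 ± 0.13 (SE, 95% interval 0.05 to 0.60, limma adjusted p = 0.157).

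Levels of different genes were compared per kilobase of annotated exon. *Uhrf1* had the highest median over the 14 lines, at 3648 per kilobase, and was above *Dnmt3l*, at 2632, in 13 of 14 lines. *Dnmt3l* and *Dnmt1*, at 2444, were not separated, the first being higher in 8 of 14 lines, nor were *Dnmt1* and *Dnmt3b*, at 1804, with 9 of 14. *Zfp57*, at 1259, came next by median, though *Dnmt3b* was above it in only 9 of 14 lines. It was above *Tet1*, at 1002, in 10 of 14. *Tet2*, at 591, and *Dnmt3a*, at 296, were each above the next gene in all 14 lines. *Tet3*, at 52.0, and *Tdg* as listed, at 48.7, were lowest and were not separated. The scale divides the reads of a gene by the length of all its exons, which is 16.6 kilobases for *Dnmt3a*, so genes with long forms that are little used appear low.

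**Figure D4:**
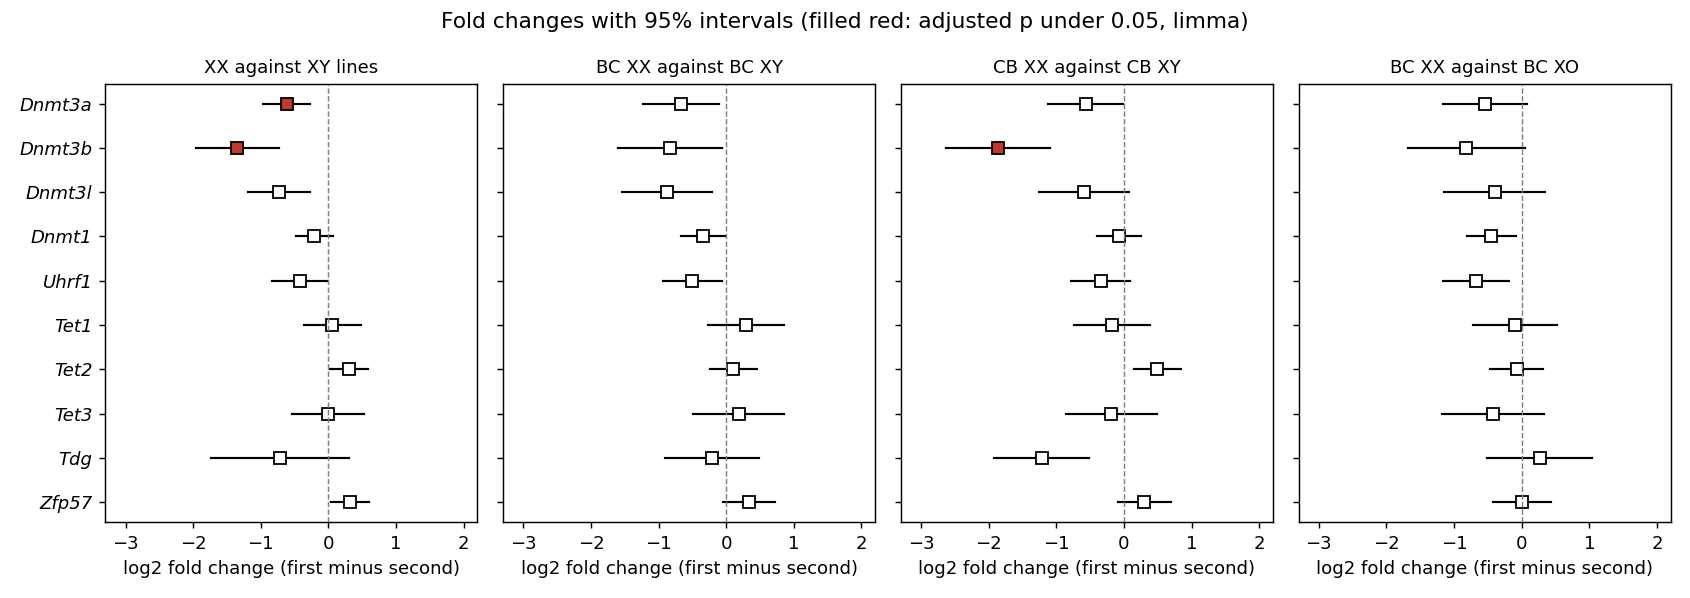
Squares are log2 fold changes of the value plus 5, first group minus second, for the 10 genes in 4 comparisons, with bars for their 95% intervals from limma and a red fill where the adjusted p is under 0.05. *Dnmt3b* and *Dnmt3a* are filled for XX against XY lines and *Dnmt3b* alone within the CB cross, and all other squares are open.

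Within the BC cross none of the 10 genes passed the limma test between XX and XY lines, where 927 of 16261 genes, or 5.7%, did. At an unadjusted p under 0.05 there were 5, namely *Dnmt3a*, *Dnmt3b*, *Dnmt3l*, *Dnmt1* and *Uhrf1*, all with lower means in XX lines, against 10.3% of all genes with that direction. Groups did not overlap for 4 of the 10 genes, against 27.1% of all genes, *Zfp57* being the one with XX lines above. Within the CB cross 1 of 10 passed, against 581 of 16261 genes or 3.57%, and 4 of 10 did not overlap, namely *Dnmt3a*, *Dnmt3b*, *Tet2* and *Tdg*, against 23.2% of all genes. For the interaction of complement and cross none of the 10 passed the limma test, where 12 of 16261 genes, or 0.0738%, did, and 1 of the 10, *Tdg*, had an unadjusted p under 0.05, against 9.05% of all genes.

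The XO lines put the dose of the X chromosome beside the presence of the Y, with the BC XX and BC XY lines on either side and shared by both comparisons. *Dnmt3b* was at 8456 in BC XO 1 and at 16879 in BC XO 2, and *Dnmt3a* at 4282 and 8031. BC XO 1 lay within the BC XX range for both genes, and for *Dnmt3b* also within the BC XY range, where BC XY 3 was at 6451. BC XO 2 lay near the top of the BC XY range or above it, so the 2 lines fell apart. *Dnmt3l* was at 5139 and 8312, again with BC XO 2 the higher. Between BC XX and BC XO lines none of the 10 genes passed the limma test, against 758 of 16261 genes or 4.66%, and 2 had an unadjusted p under 0.05, both with lower means in XX lines, against 11.7%. Those were *Dnmt1*, at 14722 and 13305 in XO lines, with a log2 fold change of -0.45 ± 0.17 (SE, limma adjusted p = 0.131), and *Uhrf1*, at 18521 and 16006, with -0.68 ± 0.23 (SE, limma adjusted p = 0.0944). For both, the XO lines were above all BC XX lines, as they were for 23.5% of all genes. With 1 line left out the limma adjusted p of *Uhrf1* ran from 0.0460 without CB XX 1, a line of neither group, to 0.442 without BC XO 1. Of the 27 fibroblast markers, 11 were called higher in BC XX than in BC XO lines, and with their level as a covariate the log2 fold change of *Dnmt1* was -0.089 and that of *Uhrf1* was -0.29, with limma adjusted p of 0.909 and 0.775.

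Between BC XO and BC XY lines none of the 10 genes passed the limma test or had an unadjusted p under 0.05, against 1 gene called of 16261, or 0.00615%, and 1.49% at the unadjusted threshold. The log2 fold change of *Dnmt3b* was -0.02 with a 95% interval of -0.88 to 0.84, and that of *Dnmt3a* was -0.12 with one of -0.75 to 0.50. The *Dnmt3l* difference was -0.47, with an interval of -1.22 to 0.27. These intervals, over 2 XO lines, include the log2 differences of -0.84, -0.67 and -0.87 between BC XX and BC XY lines for *Dnmt3b*, *Dnmt3a* and *Dnmt3l*.

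Between the crosses, none of the 10 genes was called in XX lines by limma, where 1162 of 16261 genes, or 7.15%, were, and 4 had an unadjusted p under 0.05, against 26.5% of all genes. *Dnmt3b* was the higher in BC XX lines, all of which were above all CB XX lines (log2 fold change 0.89 ± 0.36, SE, limma adjusted p = 0.136). *Uhrf1* and *Dnmt1* were the lower there, at -0.54 ± 0.20 and -0.34 ± 0.15 (SE), with limma adjusted p of 0.114 and 0.167. The fourth was *Tdg* as listed, at -0.99 ± 0.33 (SE, limma adjusted p = 0.0765), and its limma adjusted p ran from 0.0102 without CB XX 3 (log2 fold change -1.36) to 0.330 without CB XX 1 (-0.61). With *Gm9855* added its log2 fold change there was -0.077 (limma adjusted p = 0.810). Of the 27 fibroblast markers, 15 were called higher in BC XX than in CB XX lines, and with their level as a covariate the log2 fold change was 0.38 for *Dnmt3b*, -0.18 for *Uhrf1* and -0.0085 for *Dnmt1*. In XY lines *Dnmt3b* had a log2 fold change of -0.14 (95% interval -0.90 to 0.63). There *Uhrf1* was at -0.39 ± 0.20 (SE, limma adjusted p = 0.331), with all CB XY lines above all BC XY lines.

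**Figure D5:**
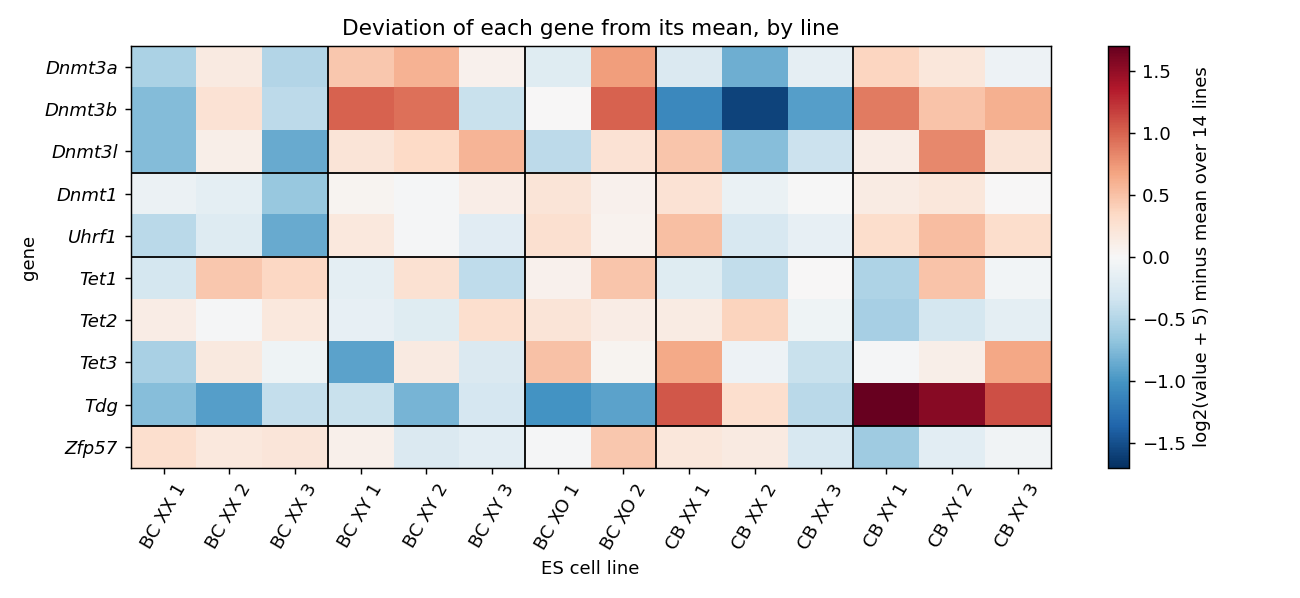
Rows are the 10 genes by role, columns the 14 ES cell lines by group, and the colour is log2(value + 5) minus the mean of the gene over the 14 lines, red above and blue below. The row of *Dnmt3b* is darkest blue in the 3 CB XX lines and BC XY 3 is its one blue XY line, and the row of *Tdg* is red in CB lines other than CB XX 3.

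Other genes of the pathway were taken from lists by function. Of 16 tested genes of base excision, deamination and O-GlcNAc transfer, 2 rose and none fell in XX against XY lines, where 3.21% of all genes were called higher. One was *Ogt*, the X-linked O-GlcNAc transferase that binds Tet proteins, at 7882 to 11237 in XX and at 5978 to 7875 in XY lines (0.54 ± 0.11, SE, limma adjusted p = 0.0123). The other was *Apobec2*, of the AID/APOBEC family, at 222 to 706 in XX and at 133 to 202 in XY lines (1.43 ± 0.26, SE, limma adjusted p = 0.00712). Without the libraries labelled CB XY 2 and 3, *Ogt* was at 0.53 and was not called (limma adjusted p = 0.0601), and *Apobec2* was at 1.39 (limma adjusted p = 0.0400). Genes of the X chromosome had a median log2 deviation of 0.32 to 0.52 in XX lines and of -0.41 to -0.055 in XY lines. The libraries labelled CB XY 2 and 3 were at -0.41 and -0.11, and BC XO 1 and 2 were at -0.17 and -0.18.

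None of the 8 partners of the methyltransferases, the 4 imprint protection genes, the 5 CXXC proteins and the 3 genes of S-adenosylmethionine supply passed the limma test between XX and XY lines, and 2, 0, 2 and 0 of them had an unadjusted p under 0.05, against 23.1% of all genes. *Prdm14*, known as a repressor of *Dnmt3b* and *Dnmt3l* in ES cells, was at 642, 499 and 470 in BC XX lines, 335, 371 and 301 in BC XY lines, 1434, 1102 and 648 in CB XX lines and 434, 408 and 541 in CB XY lines. XX lines were above XY lines within each cross. The log2 fold change over both crosses was 0.90 ± 0.26 (SE, limma adjusted p = 0.0629), and within the CB cross it was 1.13 ± 0.27 (SE), called with an adjusted p of 0.0328. Without the libraries labelled CB XY 2 and 3 the CB value was 1.21 and was not called (limma adjusted p = 0.213). The BC XO lines had 537 and 344.

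Of the 18 germline genes known to be silenced by promoter methylation, 16 were tested, 6 rose in XX lines and none fell, with a median log2 fold change of 1.14, where 3.21% of all genes were called higher. The meiotic gene *Hormad1* rose most, with 1215 to 1940 in XX lines, 182 to 511 in XY lines and 191 and 299 in XO lines (log2 fold change 2.39 ± 0.23, SE, limma adjusted p = 0.000395). *Sycp1*, of the synaptonemal complex, was at 279 to 749 in XX and at 30.3 to 278 in XY lines, and *Stk31* at 347 to 746 and 92.9 to 231. The X-linked *Tex11* was at 223 to 375 and 46.4 to 177. Groups overlapped for *Dazl*, a germ cell RNA-binding protein, at 843 to 3178 in XX and at 176 to 1337 in XY lines, and for *Fkbp6*, at 85.5 to 504 and 47.4 to 170. Without the libraries labelled CB XY 2 and 3, 4 of 17 tested rose, namely *Hormad1* (log2 fold change 2.43, limma adjusted p = 0.000706), *Stk31*, *Fkbp6* and *Tex11*, while *Dazl* and *Sycp1* were at 1.69 and 1.89 with limma adjusted p of 0.110 and 0.0799. Without these libraries 2.01% of all genes were called in either direction. With the fibroblast covariate 5 of 16 were called higher, against 3.03% of all genes called in either direction. Against BC XO lines 4 of 18 germline genes rose in BC XX lines and none fell, while 3.06% of all genes were called higher. With the fibroblast covariate these calls were lost, the value of *Hormad1* being 2.38 with a limma adjusted p of 0.0868. Of the 27 fibroblast markers, 2 of 26 tested rose in XX lines over both crosses and 18 of 27 did within the BC cross, against 4.46% of all genes called higher there.

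For each gene the 3 most similar profiles over the 14 lines were sought among 16260 others, by Pearson correlation on the log2 scale. *Dnmt3a* was nearest to *Prune*, *Slc37a4* and *Hmgxb4*, at 0.95, 0.90 and 0.90, and *Dnmt3b* to *Gna14*, *Kcnh8* and *H2-Q4*, at 0.93, 0.93 and 0.92. *Dnmt1* was nearest to *Eef2*, *Cpsf1* and *Rps26*, at 0.95 each, and *Uhrf1* to *Cbx7*, *Fkbp4* and *Lmnb2*, at 0.97, 0.97 and 0.96. *Tet1* was nearest to *Hpgds*, *1700034H15Rik* and *Bptf*, at 0.86, 0.84 and 0.84, *Tet2* to *Arl14epl*, *Rbm12b1* and *Usp46*, at 0.90, 0.87 and 0.86, and *Tet3* to *Kat6b*, *Pik3r4* and *Ppp1r7*, at 0.92, 0.87 and 0.86. The genes nearest to *Tdg* were *E130304I02Rik*, *Dmrta2* and *2610035F20Rik*, at 0.95, 0.94 and 0.93, and those nearest to *Zfp57* were *Zfp420*, *DQ267102* and *Mettl6*, at 0.84, 0.81 and 0.79. *Dnmt3l* was nearest to *Aire*, *Ncapd2* and *Lct*, at 0.91, 0.90 and 0.89. The annotation of *Aire* overlaps that of *Dnmt3l* on the opposite strand, and whether the counting used strand was not stated, so shared reads cannot be told apart. Among the 10 genes themselves the closest pair was *Dnmt3a* and *Dnmt3b*, at 0.88. The 14 lines share groups, chromosome deviations and fibroblast marker RNA, and these correlations carry no test.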

How the data were processed

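RNA of 14 mouse ES cell lines in 5 groups was sequenced as single-end reads of 50 bases and aligned to mm9 with TopHat2, and the submitters' processing notes also name Cuffdiff, without versions. The authors deposited 1 table of read signal per gene, scaled to a similar total per line (28150946 to 30657803). Whole reads were not fully recovered: of values up to 1000 steps, 98.2% to 98.8% were whole within 0.1 step, so these values were not used as counts. The 10 genes and all lists were chosen with earlier results of these data known.

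Log2(value + 5) was fitted with limma 3.58.1 (R 4.3.3) with a trended variance, and p-values were adjusted by the Benjamini-Hochberg method over every gene tested. XX and XY lines were compared in a model of 12 lines, over genes with a value of 10 or more in at least 6 of them, and all other comparisons came from a model of 5 groups, over genes with that value in at least 2 of 14 lines. All tests were two-sided. There were 15 genes listed at 0 throughout a group that reached 100 elsewhere, and they were left out. The fits were tested on simulated data. Copies of transcripts (GENCODE vM1) were sought in mm9 with BLAST+ 2.17.0, over at least 200 bases at 90% identity. Gene positions are of mm9 and promoters of GRCm38.p6. Lines were left out in turn, and 15 other settings were tried. Genes of the lists were named where past an adjusted p of 0.05 in XX against XY lines, with *Prdm14*, and the 3 nearest profiles of each of the 10 genes. The CB XX columns carry other numbers than the sample titles, so these lines were numbered by column. Lines are separate embryos, and intervals cover the spread between lines. One list of the pathway is not reported here.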

Additional observations from a re-analysis of the deposited data

Results flagged for a closer look

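One value stood apart within its group. *Zfp57* in CB XX 3, at 3844, was below the other 5 XX lines, which lay between 5159 and 5667, and its gap to the nearest of them was 0.758 of the whole range on the log2 scale. Each of the 10 genes was looked at in the 6 XX and the 6 XY lines, and chance flags about 1 in 20 such groups.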

How the results depend on the processing

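Of the count of the 10 genes called in each comparison, 98 of 109 values under other settings and 89 of 110 with 1 line left out stayed within 1.5 times the main count. The comparisons with genes called moved most. Over XX against XY lines 12 values stayed and 14 moved. For BC XY against CB XY 18 stayed and 10 moved, and within the CB cross 23 stayed and 4 moved. Over XX against XY lines, where 2 were called, the count was 1 with no filter on low values, 1 with the fibroblast covariate, 1 without BC XY 3 and the libraries labelled CB XY 2 and 3, and 0 without the libraries labelled CB XY 2 and 3. Leaving out 1 line gave 1 to 4, with 4 without CB XX 1 and 1 without any single one of the 8 lines named for *Dnmt3a*. Within the BC cross it was 0 to 1, the 1 without BC XY 3, and within the CB cross 0 to 2, with 0 without CB XX 2 or CB XY 1 and 2 without CB XX 1, and 0 without the libraries labelled CB XY 2 and 3. For BC XX against BC XO it was 0 to 1, the 1 without CB XX 1, and for BC XX against CB XX 0 to 1, the 1 without CB XX 3. For BC XY against CB XY, where *Tdg* was called, it was 0 to 1 with 1 line left out (0 without any single one of its own 6), 0 with no filter, 0 without the libraries labelled CB XY 2 and 3, 0 without BC XY 3 as well, and 0 with *Gm9855* added. Same-numbered lines correlated in their deviations at -0.22 to 0.27 and were not taken as pairs. The replicate block leaves out the CB XX lines, since their columns and titles carry different numbers. Over XX against XY lines each CB XY line is then alone in its block, so that estimate rests on the BC lines only. With the block the count was 0 over XX against XY lines and 1 within the BC cross (*Dnmt3l*, log2 fold change -0.87, limma adjusted p = 0.0310). The causes were not tested.

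Over all genes, the 797 called between XX and XY lines became 313 without the libraries labelled CB XY 2 and 3, and 285 without BC XY 3 as well. They became 464 with the fibroblast covariate, 499 relative to chromosome medians and 1697 with cross as a covariate. With the replicate block, where the estimate rests on the BC lines only, 0 were called. Leaving out 1 line gave 410 to 1746. With the fibroblast covariate the 927 called within the BC cross became 8, and the 758 for BC XX against BC XO became 33, while the latter became 5 without BC XO 1 and 12 without BC XO 2.

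Of the called values, the one that changed sign was *Tdg* between BC XY and CB XY lines. With *Gm9855* added, that value was 0.24, and *Tdg* was at -0.55 for BC XX against BC XO, 0.064 for BC XO against BC XY and -0.32 for the interaction. *Tet3* in XX against XY lines was 0.0077 with median-of-ratios factors and 0.042 relative to chromosome medians. It was 0.18 with the replicate block, where the estimate rests on the BC lines only. Without the libraries labelled CB XY 2 and 3 it was 0.210, and without BC XY 3 as well 0.211. It was 0.15 with the fibroblast covariate. That covariate put *Dnmt1* at 0.046 and *Tet1* at -0.091 over both crosses, *Dnmt3l* at 0.16, *Dnmt1* at 0.11, *Uhrf1* at 0.0018 and *Tdg* at 0.40 for BC XX against BC XY, and *Dnmt3l* at 0.40 and *Tet2* at 0.012 for BC XX against BC XO. Within the CB cross, *Tet1* was 0.31 and *Tet3* 0.075 without the libraries labelled CB XY 2 and 3, with or without BC XY 3, and *Dnmt3b* between BC XY and CB XY lines was 0.092 without all 3. For BC XX against BC XO, *Zfp57* was -0.0051 with TMM factors and -0.016 with the replicate block, and *Tet1* was 0.011 relative to chromosome medians.

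With 1 line left out, values over XX against XY lines ranged from -0.17 to 0.14 for *Tet3* and from -0.040 to 0.17 for *Tet1*. Within the BC cross *Tet3* ranged from -0.10 to 0.43. Within the CB cross *Dnmt1* ranged from -0.17 to 0.0055, *Tet3* from -0.48 to 0.031 and *Tet1* from -0.42 to 0.075. For BC XX against BC XO, *Tet1* ranged from -0.29 to 0.14 and *Zfp57* from -0.23 to 0.24. For BC XO against BC XY, *Dnmt3b* ranged from -0.52 to 0.48 and *Dnmt3a* from -0.58 to 0.33. For BC XY against CB XY, *Dnmt3b* ranged from -0.38 to 0.32.

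The settings relative to chromosome medians, with genes at 0 kept, without BC XY 3 and the libraries labelled CB XY 2 and 3, and with *Gm9855* added were chosen after seeing the data. The count tests planned on whole reads were not run, since reads were not fully recovered. Depth was lowest in CB XY 2, at 11904420 reads. Leaving out the libraries labelled CB XY 2 and 3 leaves 1 CB XY line.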
